A study of Homo sapiens with 6 samples.

Results

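The genes that write, read and erase DNA methylation were examined in HCT116 cells, a human colorectal cancer line of epithelial origin. The members were DNMT1, DNMT3A, DNMT3B, UHRF1, TET1, TET2, TET3, TDG and MBD2, chosen by name, and all 9 were found among the 40173 genes of the count table. They held 80 of its 151453 transcripts with a gene. The study compared cells transduced with a control lentivirus (MOCK) with cells transduced with a lentivirus that carried the coding region of CYGB, the haem protein cytoglobin, fused to FLAG (CYGB). The labels give the genotype as wild type for MOCK and as CYGB overexpression for CYGB. Both groups were puromycin-selected stable lines of untreated cells, with 3 RNA-seq libraries per group. Where the libraries of a group came from 1 transduced line, p-values measured only the spread between its cultures, and CYGB overexpression cannot be told apart from other differences between the selected lines.

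Cytosine methylation at CpG sites is laid down de novo by DNMT3A and DNMT3B and copied onto the new strand at each replication by DNMT1. UHRF1 recognises hemimethylated CpG sites and brings DNMT1 to them, and MBD2 reads fully methylated CpG sites and recruits the NuRD chromatin remodelling and deacetylase complex. The TET enzymes oxidise 5-methylcytosine with iron and 2-oxoglutarate as cofactors, and TDG excises the more oxidised forms so that base excision repair can restore cytosine. HCT116 is widely used to study this system, because lines with DNMT1, DNMT3B or both genes disrupted were made from it.

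The totals of the libraries lay between 58138393 and 65252059 counts (MOCK) and between 61601071 and 66035266 counts (CYGB), of which 18.6 to 19.5% lay in assembled transcripts without a gene and were left out. CYGB itself was counted 10, 28 and 34 times in MOCK and 34935, 27681 and 32333 times in CYGB. Of the 7 epithelial markers fixed for HCT116, EPCAM, KRT8, KRT18, KRT19 and CDH1 had at least 5473 counts in every library, while CLDN4 had at most 87 counts and VIL1 at most 40. Of 9 markers of other cell types, PTPRC, CD3E, COL1A2 and PECAM1 had at most 13 counts in any library, and PDGFRB, VWF and GFAP at most 102. COL1A1 had 2117 to 2823 counts and CD68 500 to 1326 counts. Of these 9 markers, 5 passed the expression filter. Their summed level ranged from 68.2 to 73.5 CPM (counts scaled to a common library size with TMM factors) in MOCK and from 60.4 to 83.5 CPM in CYGB.

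Several members are spliced into isoforms that differ in or near functional parts of the protein, and the table counts these isoforms separately. Sequences that set isoforms of DNMT3B, TET2 and TDG apart are given first, from the GENCODE 29 transcripts on GRCh38, because the counts of these genes are divided among such isoforms. Capitals mark the segment that is present in the first isoform named and absent from the second, and the lower-case ends are the 15 bases on each side of it in the transcript.
DNMT3B-202 against DNMT3B-204 (60 bases, chr20:32793536-32793595, plus strand): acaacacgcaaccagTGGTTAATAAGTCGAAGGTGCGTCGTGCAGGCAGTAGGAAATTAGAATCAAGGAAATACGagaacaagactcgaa
DNMT3B-202 against DNMT3B-203 (189 bases in exons at chr20:32805338-32805407 and chr20:32806209-32806327, plus strand): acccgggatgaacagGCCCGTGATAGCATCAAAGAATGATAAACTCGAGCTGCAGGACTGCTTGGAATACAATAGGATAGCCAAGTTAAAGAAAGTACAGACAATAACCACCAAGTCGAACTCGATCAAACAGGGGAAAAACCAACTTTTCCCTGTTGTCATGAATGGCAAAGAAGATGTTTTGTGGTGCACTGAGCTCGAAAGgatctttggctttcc
TET2-203 against TET2-201 (91 bases, chr4:105241339-105241429, plus strand): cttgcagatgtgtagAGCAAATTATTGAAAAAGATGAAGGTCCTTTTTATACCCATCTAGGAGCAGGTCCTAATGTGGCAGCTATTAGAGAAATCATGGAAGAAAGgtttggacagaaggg
TDG-202 against TDG-209 (143 bases, chr12:103976918-103977060, plus strand): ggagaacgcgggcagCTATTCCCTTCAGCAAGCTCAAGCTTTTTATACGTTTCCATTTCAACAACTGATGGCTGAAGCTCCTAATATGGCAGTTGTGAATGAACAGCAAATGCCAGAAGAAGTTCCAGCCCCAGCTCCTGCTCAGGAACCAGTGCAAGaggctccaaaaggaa

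The DNMT3B segments are whole numbers of codons, 20 and 63, so their loss shortens the protein and keeps its reading frame. The TET2 exon leaves a remainder of 1 base after division into codons, and TET2-201, which skips it, is annotated as a target of nonsense-mediated decay with 1194 codons in place of 2002. The TDG exon leaves a remainder of 2 bases, and TDG-209 is annotated with 267 codons in place of the 410 of TDG-202.

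No member was called different between the groups. Per gene, with the counts of its transcripts summed, 0 of the 9 members passed the threshold of the study's methods, an unadjusted p of 0.01 or less together with a CYGB to MOCK ratio that is 2 or more, or 0.5 or less. In the same fit 0.565% of all 19987 genes tested passed it. At a Benjamini-Hochberg adjusted p under 0.05 in edgeR's quasi-likelihood fit there were 0 members (0.055% of all genes). TET3 was the 1 member with an unadjusted p under 0.05 (4.54% of all genes), and its p was under 0.05 in 4 of the 14 alternative fits, which did not include DESeq2, edgeR's exact test or the replicate block. DESeq2 and edgeR's exact test also placed 0 members past the threshold and 0 at an adjusted p under 0.05. By sign alone 4 members were higher and 5 lower in CYGB, and the median log2 fold change was -0.01 over the members and -0.01 over all genes tested. The CYGB and MOCK libraries did not overlap for DNMT1 and TET3, 2 of 9 members, against 11.0% of all genes. These are measurements of bulk RNA, in which fewer expressing cells and less RNA per cell cannot be told apart. Whether reads of a member were counted in assembled transcripts without a gene, which were left out of the sums, was not tested.

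**Figure D1:**
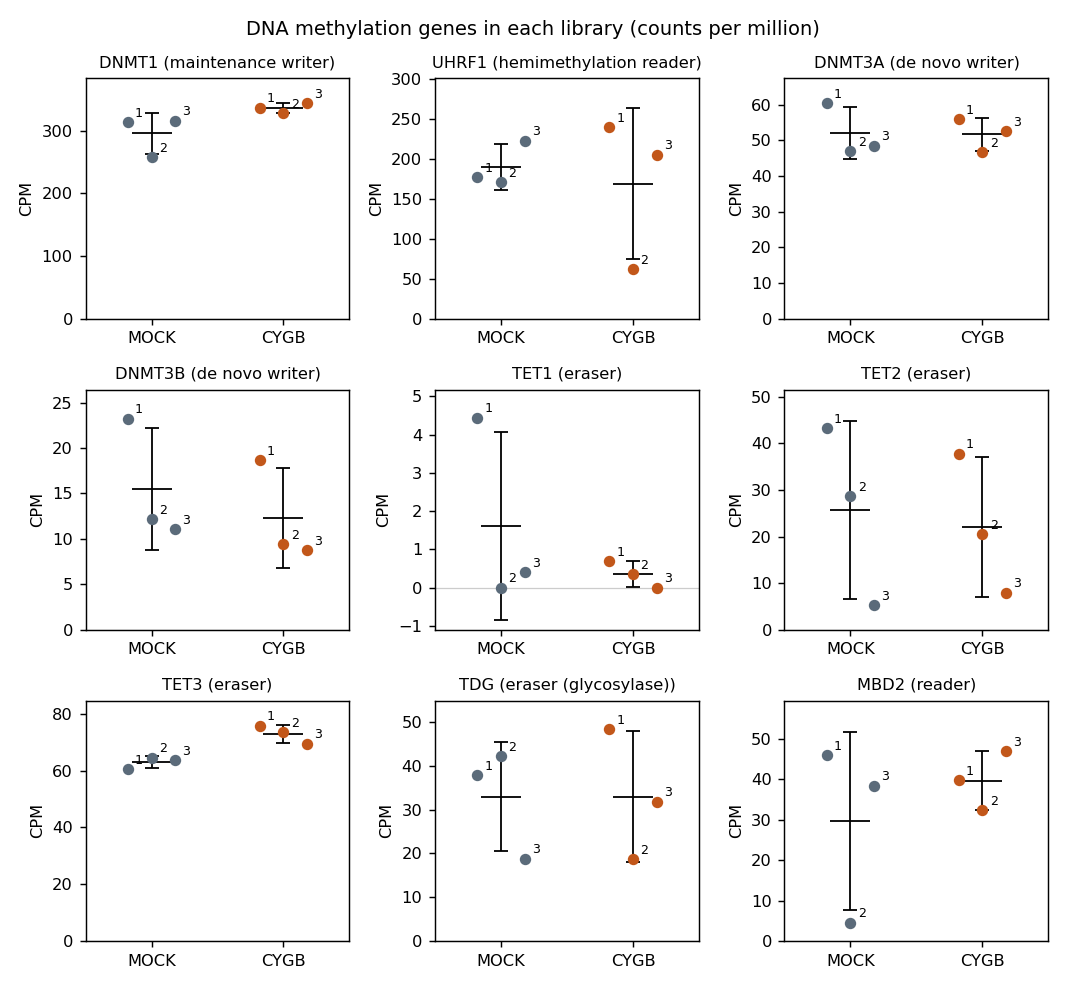
Level of each member in each library, in CPM (counts scaled to library size) on linear axes, with the replicate number beside each point, the group mean as a horizontal line and the SD as a bar (n = 3 per group). DNMT1 and TET3 are the members whose groups do not overlap, and single libraries stand apart for UHRF1 (CYGB replicate 2), TET1 (MOCK replicate 1) and MBD2 (MOCK replicate 2).

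DNMT1, the maintenance methyltransferase (ENSG00000130816, chr19:10133345-10231286, minus strand), had the highest level per kilobase of the members. Its counts in replicates 1 to 3 were 14794, 13626 and 16259 for MOCK and 17009, 16643 and 18051 for CYGB. Every CYGB library lay above every MOCK library, and the lowest was MOCK replicate 2. The mean level was 296 ± 32.7 (MOCK) and 336 ± 8.11 CPM (CYGB) (SD, n = 3 each), and the log2 fold change was 0.18 (standard error 0.10, edgeR quasi-likelihood adjusted p = 0.963). The 95% interval of the log2 fold change ran from -0.05 to 0.42, so a ratio between 0.966 and 1.34 was compatible with these libraries. S1PR2, a receptor gene that overlaps DNMT1 on the same strand, was counted separately at 854 to 1128 counts.

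Counts of DNMT1 lay mostly in DNMT1-202, an isoform with 1632 codons. Its share of the gene's counts was 79.7 ± 5.54% in MOCK and 78.6 ± 3.12% in CYGB (SD, n = 3 each; p = 0.8, two-sided exact permutation test). DNMT1-201, with 1616 codons, was counted 884, 1902 and 1530 times in MOCK and 2770, 2480 and 1936 times in CYGB. All CYGB libraries were above all MOCK libraries for DNMT1-201, and its log2 fold change was 0.75 (standard error 0.31). Over all transcripts its edgeR quasi-likelihood adjusted p was 1.0. No run of 150 bases, the read length, is particular to DNMT1-202.

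UHRF1, the reader of hemimethylated sites (ENSG00000276043, chr19:4903080-4962154, plus strand), had 8359, 9032 and 11482 counts in MOCK. The CYGB libraries had 12135, 3165 and 10785 counts. CYGB replicate 2 was the lowest of all 6 libraries, while the other two CYGB libraries lay within or above the MOCK range. Group means were 190 ± 28.5 (MOCK) and 169 ± 94.3 CPM (CYGB) (SD, n = 3 each), and the log2 fold change was -0.17 (standard error 0.47, edgeR quasi-likelihood adjusted p = 0.989). The 95% interval ran from -1.31 to 0.97. Without CYGB replicate 2 the log2 fold change was 0.22, so the sign of the UHRF1 value rested on that library.

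The low UHRF1 count of CYGB replicate 2 was most marked in 1 isoform. UHRF1-205, the isoform with 857 codons and the most abundant over the 6 libraries, was counted 3704, 4625 and 9824 times in MOCK and 4858, 83 and 5781 times in CYGB. The remaining UHRF1 transcripts together were counted 4655, 4407 and 1658 times in MOCK and 7277, 3082 and 5004 times in CYGB. In this sum CYGB replicate 2 lay above MOCK replicate 3 only. Within the CYGB group, replicate 2 was also the lowest library for UHRF1-203, UHRF1-204 and UHRF1-206. The share of UHRF1-205 thus ranged from 2.62% in CYGB replicate 2 to 85.6% in MOCK replicate 3. Its mean was 60.4 ± 22.1% in MOCK and 32.1 ± 26.4% in CYGB (SD, n = 3 each; p = 0.3, two-sided exact permutation test). UHRF1-203 and UHRF1-204, with 793 codons each, held at most 30.9% and 24.8% of the gene's counts in a library, and UHRF1-206, with 806 codons, at most 27.2%. UHRF1-204 was counted 764, 959 and 620 times in MOCK and 2648, 785 and 1433 times in CYGB, with a log2 fold change of 1.05 (standard error 0.47, edgeR quasi-likelihood adjusted p = 1.0).

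DNMT3A, a de novo methyltransferase (ENSG00000119772, chr2:25227855-25342590, minus strand), had nearly equal means in the 2 groups. Its counts were 2853, 2483 and 2495 in MOCK and 2823, 2369 and 2757 in CYGB, and the groups overlapped throughout. On average it reached 52.0 ± 7.35 (MOCK) and 51.7 ± 4.69 CPM (CYGB) (SD, n = 3 each). The log2 fold change was -0.01 (standard error 0.14), with a 95% interval from -0.34 to 0.33, which leaves room for ratios from 0.788 to 1.25. The edgeR quasi-likelihood adjusted p was 0.999. DNMT3A-201, with 912 codons, held 83.6, 83.9 and 82.5% of the counts in MOCK and 84.9, 86.0 and 87.0% in CYGB. The mean share differed by 2.63 percentage points (p = 0.1, two-sided exact permutation test, the smallest value that 3 libraries against 3 allow).

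DNMT3B, the other de novo enzyme (ENSG00000088305, chr20:32762385-32809356, plus strand), was counted 1096, 642 and 569 times in MOCK and 942, 479 and 461 times in CYGB. Replicate 1 was the highest library of each group, and the groups overlapped. The mean level was 15.5 ± 6.72 (MOCK) and 12.3 ± 5.52 CPM (CYGB) (SD, n = 3 each), with a log2 fold change of -0.33 (standard error 0.42, edgeR quasi-likelihood adjusted p = 0.964). The 95% interval from -1.35 to 0.68 did not exclude a 2-fold lower level. Without MOCK replicate 1 the log2 fold change was 0.08.

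DNMT3B isoforms are known to differ in activity, and the form without the 189-base segment, which codes for part of the catalytic domain, is regarded as inactive by itself. DNMT3B-203, which lacks both segments printed above and has 770 codons, was counted 360, 187 and 333 times in MOCK and 504, 189 and 211 times in CYGB. Its share was 40.2 ± 16.0% in MOCK and 46.2 ± 7.04% in CYGB (SD, n = 3 each; p = 0.6, two-sided exact permutation test). The transcripts that hold the 189 bases accounted for 57.2, 55.0 and 41.5% of the gene's counts in MOCK and 46.5, 60.5 and 54.2% in CYGB. This division was therefore similar in range in the 2 groups, while the counts within it moved between isoforms from library to library. DNMT3B-202, the full form with 853 codons and the only one with the 60 bases, was counted 383, 104 and 0 times in MOCK and 9, 179 and 0 times in CYGB. DNMT3B-201, with 845 codons, was counted 4, 0 and 0 times in MOCK and 0, 73 and 172 times in CYGB. DNMT3B-204, with 833 codons, was counted 240, 249 and 236 times in MOCK and 429, 38 and 78 times in CYGB. DNMT3B-203 and DNMT3B-204 have no run of 150 bases of their own.

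TET1, a methylcytosine dioxygenase (ENSG00000138336, chr10:68560656-68694482, plus strand), had few counts in these cells. It was counted 210, 0 and 21 times in MOCK and 35, 18 and 0 times in CYGB, all in 1 transcript of 2136 codons. MOCK replicate 1 held most of the counts, and a library of each group had none. By sampling noise alone, 0 counts allow up to 3 counts, but the MOCK libraries spread more widely than that, from 0 to 210. The fitted log2 fold change was -2.20 (standard error 1.81, edgeR quasi-likelihood adjusted p = 0.963) with a 95% interval from -6.60 to 2.19, and without MOCK replicate 1 it was 0.77.

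TET2, the TET enzyme without a CXXC DNA-binding domain (ENSG00000168769, chr4:105145875-105279816, plus strand), varied widely within each group. Its counts were 2042, 1518 and 273 in MOCK and 1907, 1045 and 417 in CYGB. Replicate 3 was the lowest library of each group. Group means were 25.8 ± 19.1 (MOCK) and 22.1 ± 15.0 CPM (CYGB) (SD, n = 3 each), with a log2 fold change of -0.22 (standard error 0.83, edgeR quasi-likelihood adjusted p = 0.993). The 95% interval ran from -2.25 to 1.80. The log2 fold change was 0.37 without MOCK replicate 1 and 0.18 without CYGB replicate 3.

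Of the 8 isoform shares tested, that of TET2 had the largest difference between the groups. TET2-203, which codes for the whole protein of 2002 codons, was counted 821, 27 and 0 times in MOCK and 1670, 922 and 237 times in CYGB. It held 40.2, 1.78 and 0% of the gene's counts in MOCK and 87.6, 88.2 and 56.8% in CYGB, so every CYGB share was above every MOCK share. The mean share was 14.0 ± 22.7% in MOCK and 77.6 ± 17.9% in CYGB (SD, n = 3 each), a difference of 63.6 percentage points. The two-sided exact permutation test gave p = 0.1, the smallest value possible, and an adjusted p of 0.267 over the 8 shares tested. TET2-203 was chosen for this test as the most abundant TET2 transcript over all 6 libraries, a rank it owed to the CYGB libraries. In each MOCK library TET2-201 had at least as many counts. The choice thus drew on the values compared, and the test gives no independent support for a difference. Among the 8 shares, those of DNMT3A and TET3 also reached p = 0.1 in this exact permutation test.

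TET2-201, which skips the 91-base exon and ends early, was counted 975, 1088 and 0 times in MOCK and 0 times in each CYGB library. MOCK replicate 3 thus matched the CYGB group in having no count of it, and the transcript did not pass edgeR's expression filter. DESeq2 placed TET2-201 past the threshold with an adjusted p of 0.0452, and over the 7 alternative fits that tested it the adjusted p ranged from 0.0452 to 1.0. TET2-209, which codes for the same 2002 codons as TET2-203, was counted 135, 267 and 141 times in MOCK and 162, 0 and 66 times in CYGB. Transcripts that code for the whole protein, TET2-203 and TET2-209 together, held 46.8, 19.4 and 51.6% of TET2 counts in MOCK and 96.1, 88.2 and 72.7% in CYGB. This sum was formed after its values had been seen and was not tested. TET2-204, a short form of 1167 codons that lacks the carboxy-terminal catalytic domain, was counted 0, 88 and 89 times in MOCK and 0, 4 and 31 times in CYGB. TET2-203 has no run of 150 bases of its own, and in TET2-201 such runs make up 1.54% of all its runs, those across the junction left by the skipped exon.

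**Figure D2:**
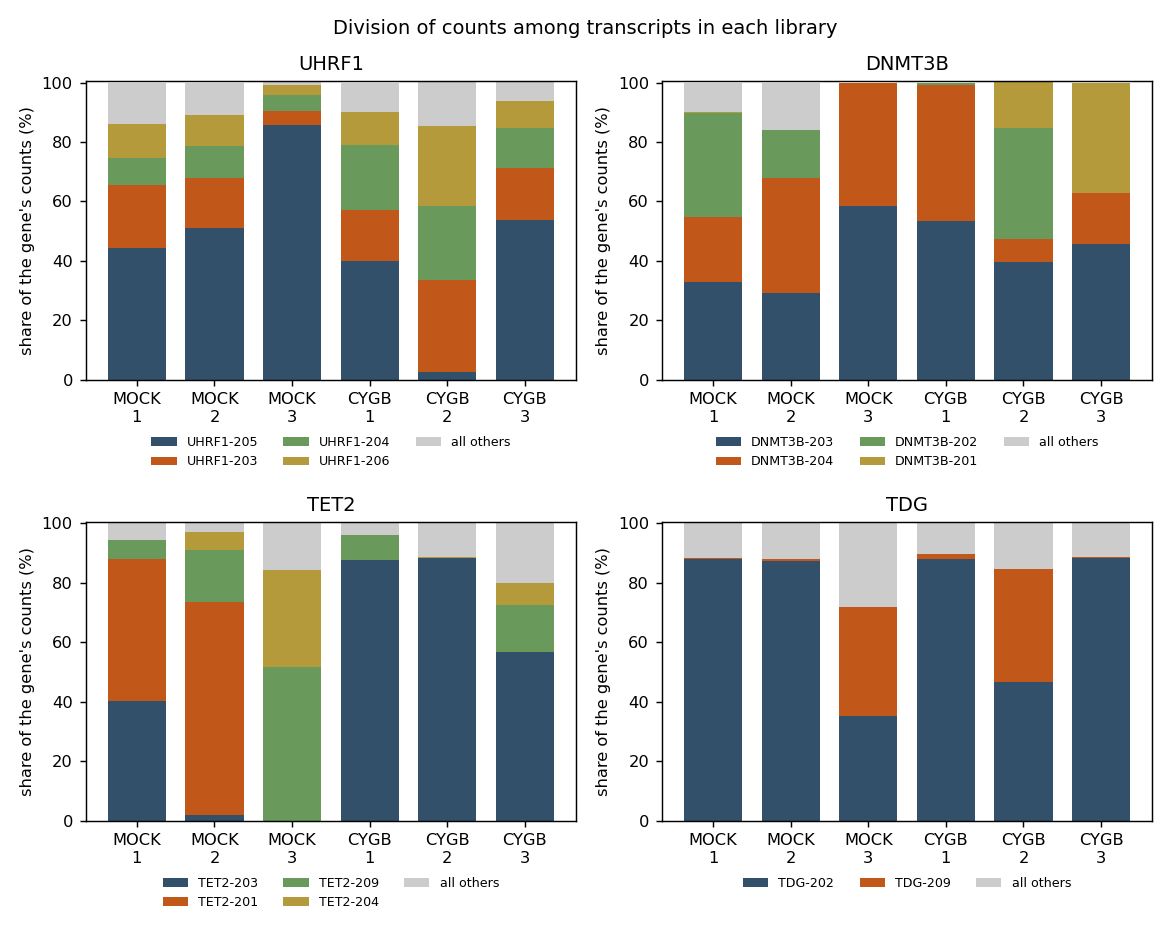
Share of the gene's counts held by each named transcript in each library, in percent, for UHRF1, DNMT3B, TET2 and TDG, with all other transcripts in grey. TET2-201 takes 47.7 and 71.7% in MOCK replicates 1 and 2 and 0% elsewhere, TET2-203 takes 56.8 to 88.2% in the CYGB libraries, and TDG-209 takes over 36% in 1 library of each group.

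TET3, the TET enzyme best known from the zygote (ENSG00000187605, chr2:73986404-74108176, plus strand), was the member with the lowest unadjusted p. It was counted 2859, 3413 and 3279 times in MOCK and 3833, 3732 and 3650 times in CYGB. Each CYGB library was above each MOCK library, and the spread within the groups was small. The mean level was 62.9 ± 2.14 (MOCK) and 72.9 ± 3.22 CPM (CYGB) (SD, n = 3 each), with a log2 fold change of 0.21 (standard error 0.08) and a 95% interval from 0.01 to 0.41. The ratio was 1.16 with bounds of 1.01 and 1.33, and the edgeR quasi-likelihood adjusted p was 0.963 over all genes. With 1 library left out at a time the log2 fold change of TET3 ranged from 0.18 to 0.25. TET3-202, with 1795 codons, held at least 96.5% of TET3 counts in every library, and TET3-203, a retained-intron transcript, was counted 3, 1 and 3 times in MOCK and 132, 1 and 44 times in CYGB.

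The 3 genes whose log2 CPM followed that of TET3 most closely over the 6 libraries were FAM57A (Pearson r = 0.990), DHRSX (r = 0.989) and TK2 (r = 0.987, the mitochondrial thymidine kinase). They were the highest of 19987 genes over libraries that include the group difference, so these values are a description. FAM57A was at 5.95, 7.63 and 7.42 CPM in MOCK and 22.3, 21.5 and 13.2 CPM in CYGB, a log2 fold change of 1.44 (edgeR quasi-likelihood adjusted p = 0.553), and passed the threshold of the study's methods, as 0.565% of all genes did. DHRSX and TK2 had log2 fold changes of 0.29 and 0.12.

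TDG, the thymine DNA glycosylase (ENSG00000139372, chr12:103965804-103988874, plus strand), was counted 1787, 2232 and 965 times in MOCK and 2446, 950 and 1674 times in CYGB. A library of each group was low, MOCK replicate 3 and CYGB replicate 2, and the ranges overlapped. On average it reached 32.9 ± 12.5 (MOCK) and 33.0 ± 14.9 CPM (CYGB) (SD, n = 3 each), and the log2 fold change was 0.002 (standard error 0.43, edgeR quasi-likelihood adjusted p = 1.0) with a 95% interval from -1.05 to 1.06. The same 2 libraries differed from the others in how the counts were divided among isoforms. TDG-202 was counted 1569, 1951 and 339 times in MOCK and 2147, 443 and 1477 times in CYGB, whereas TDG-209, without the 143-base exon, was counted 9, 9 and 353 times in MOCK and 45, 361 and 9 times in CYGB. The share of TDG-202 was 70.1 ± 30.3% in MOCK and 74.2 ± 23.9% in CYGB (SD, n = 3 each; p = 0.6, two-sided exact permutation test). Its processed pseudogene TDGP1 had 22 to 45 counts.

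MBD2, the methyl-CpG reader of NuRD (ENSG00000134046, chr18:54151601-54224788, minus strand), was counted 2169, 237 and 1981 times in MOCK and 2014, 1645 and 2465 times in CYGB. MOCK replicate 2 stood far below the other 5 libraries, whose ranges overlapped. Group means were 29.6 ± 22.1 (MOCK) and 39.7 ± 7.28 CPM (CYGB) (SD, n = 3 each), with a log2 fold change of 0.42 (standard error 0.75, edgeR quasi-likelihood adjusted p = 0.979). The 95% interval ran from -1.40 to 2.25, and without MOCK replicate 2 the log2 fold change was -0.09. MBD2-201, with 411 codons, held 99.2, 92.4 and 99.0% of the counts in MOCK and 99.3, 99.1 and 99.1% in CYGB.

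**Figure D3:**
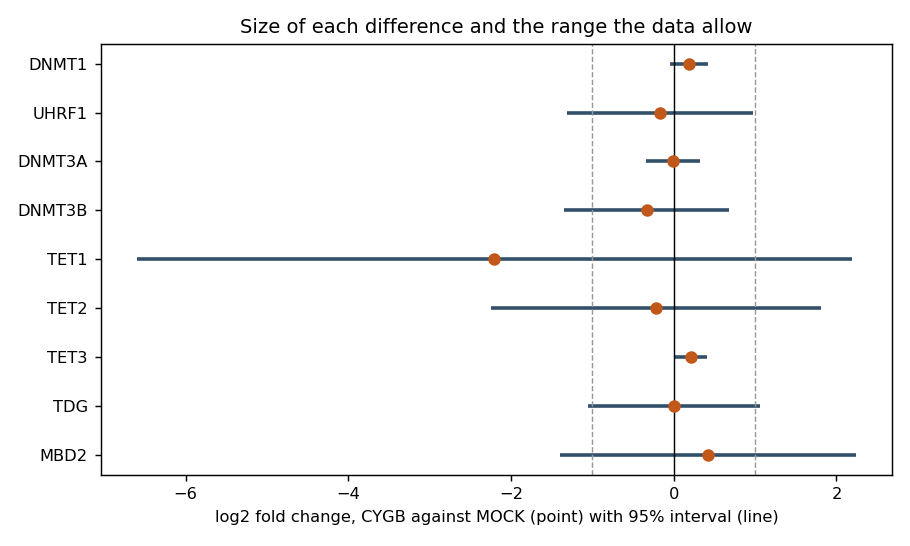
Log2 fold change of each member, CYGB against MOCK, from edgeR's quasi-likelihood fit (points), with its 95% interval (lines). Dashed lines mark a 2-fold difference in either direction. The intervals of DNMT1, DNMT3A and TET3 lie inside the dashed lines, and those of the other 6 members cross at least 1 of them.

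The precision of the members fell into separate classes. The standard error of the log2 fold change was 0.08 to 0.14 for TET3, DNMT1 and DNMT3A, whose 95% intervals excluded a 2-fold difference in either direction. It was above the median of all genes tested, 0.26, for the other 6 members, and there a 2-fold difference in at least 1 direction was not excluded. Leaving out 1 library at a time changed the sign of the log2 fold change for 7 members, UHRF1, DNMT3A, DNMT3B, TET1, TET2, TDG and MBD2, but not for DNMT1 (0.10 to 0.23) or TET3. For DNMT3A it was 0.11 without MOCK replicate 1 and 0.06 without CYGB replicate 2, and for TDG it was -0.28 without MOCK replicate 3 and -0.38 without CYGB replicate 1.

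Levels were compared between members only after division by transcript length, as CPM per kilobase, with each transcript's count divided by its own length. DNMT1 was the highest, at a median of 83.0 and a range of 72.8 to 88.7 CPM per kilobase over the 6 libraries, followed by UHRF1 at a median of 56.0 (21.0 to 73.9). After a gap came TDG (13.2), DNMT3A (8.33), MBD2 (8.03), TET3 (6.20), DNMT3B (2.98) and TET2 (2.76), all as median CPM per kilobase. TET1 was last at 0.041 CPM per kilobase. The ranges of UHRF1 and TDG did not overlap, nor did those of TET2 and TET1, while every other pair of neighbours in this order overlapped. Among the TET enzymes, TET3 was the highest in every library.

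Per transcript, the unit of the deposited table, 43 of the 80 member transcripts passed the expression filter. In edgeR's quasi-likelihood fit 0 of these passed the threshold of the study's methods (1.02% of 66609 transcripts tested). An unadjusted p under 0.05 (3.78%) and an adjusted p under 0.05 (0.015%) were reached by 0 as well. In simulated counts with 200 transcripts changed 8-fold, this fit placed 56.5% of these past the threshold and 0% at an adjusted p under 0.05. The adjusted p per transcript therefore had little power to show even a change of that size. The fit also placed 482 unchanged simulated transcripts past the threshold. The changed transcripts were drawn at random from all those tested, so these rates need not hold for well-counted ones. Of the 43 member transcripts, 24 were higher and 19 lower in CYGB by sign, with a median log2 fold change of 0.05 against -0.01 over all transcripts. The groups did not overlap for 4 of the 43 (10.4% of all transcripts), DNMT1-201, DNMT1-203, DNMT1-218 and TET3-202. edgeR's exact test also placed 0 past the threshold (1.66% of all transcripts by that test). DESeq2 placed 3 there, TET2-201, TET3-203 and DNMT1-225, as it did 1.91% of the 128084 transcripts to which it gave a p. DNMT1-225 was counted 2, 82 and 10 times in MOCK and 0, 3 and 1 times in CYGB, with most of its MOCK counts in MOCK replicate 2. Of the 19 transcripts that the naming rule selected, 5 have no run of 150 bases of their own, and how the counting tool divided reads among isoforms is not given in the sources used here.

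Most promoters of the members were rich in CpG, the dinucleotide that their own products act on. In windows from 250 bases before to 50 bases after each RefSeq gene start (GRCh38.p14), the 20 windows of the 9 members held a median of 27 CG dinucleotides, against a median of 14 over all 35116 windows. Counts were above this overall median in 15 of the 20 windows. UHRF1, DNMT3A and TET3 had windows with up to 46, 46 and 45 CG dinucleotides. DNMT3B had 3 in its single window and TET1 had 6 to 11 in its windows, the lowest of the members. No methylation was measured in these samples.

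Genes that work with the members, or that are known to depend on DNA methylation, were described in 7 further lists of 118 genes, of which 85 were tested. In edgeR's quasi-likelihood fit 0 of the 85 passed the threshold and 0 had an adjusted p under 0.05. HELLS, MAT2A, PRAME and DIRAS3 were the 4 with an unadjusted p under 0.05 (4.54% of all genes). The groups did not overlap for 5 of the 85 (11.0% of all genes), and the median log2 fold change was 0.02. DESeq2 placed HELLS and MAT2A past the threshold (0.966% of the 34465 genes to which it gave a p), and so did edgeR's exact test (1.28% of 19987 genes).

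Of 15 tested partners of maintenance and de novo methylation, 10 were higher and 5 lower by sign, with a median log2 fold change of 0.04. HELLS, a chromatin remodeller needed for methylation of repeats, was counted 2324, 257 and 750 times in MOCK and 102, 264 and 276 times in CYGB. The CYGB libraries and MOCK replicate 2 all lay at 276 counts or fewer, so the groups overlapped. Its log2 fold change was -2.46 (standard error 0.88, edgeR quasi-likelihood adjusted p = 0.963). LIG1, which joins Okazaki fragments and binds UHRF1 when methylated, was at 131 ± 3.64 CPM in MOCK and 145 ± 13.3 CPM in CYGB (SD, n = 3 each), without overlap. CDCA7L had 6044 counts in CYGB replicate 1 and 990 to 1686 in the other libraries.

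SETD2, whose histone mark H3K36me3 guides DNMT3 enzymes, was picked out after its values were seen. It was counted 74, 4624 and 67 times in MOCK and 4371, 4263 and 4848 times in CYGB. MOCK replicate 2 was at the level of the CYGB group and the other two MOCK libraries were far below it. In the fit to all 6 libraries the log2 fold change was 1.54 (standard error 1.53, edgeR quasi-likelihood adjusted p = 0.963) and SETD2 did not pass the threshold. Without MOCK replicate 2 it passed, with a log2 fold change of 5.93 (edgeR quasi-likelihood adjusted p = 0.00574). Over the alternative fits that gave one, the adjusted p ranged from 0.00574 to 1.0. Only the fit without MOCK replicate 2 gave the low end, and the other fits gave 0.837 or more. That fit left out the MOCK library at the level of the CYGB group, so its outcome is no support for a difference.

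Other methyl-CpG readers (9 tested) had a median log2 fold change of 0.04 and NuRD subunits (12 tested) one of -0.01. Among readers, ZBTB38 had the largest value, 1.03 (standard error 0.43, edgeR quasi-likelihood adjusted p = 0.963), with counts of 149, 194 and 213 in MOCK and of 312, 194 and 648 in CYGB. MBD1 and MBD3 had log2 fold changes of 0.27 and 0.32. Of the NuRD subunits that MBD2 recruits, RBBP4 had a log2 fold change of 0.90 with 1645 counts in MOCK replicate 2 and 5596 to 12887 in the others, MTA1 had -0.21 and CHD3 had 0.47. By count, MOCK replicate 2 was the lowest library for MBD2 and for the subunits RBBP4, RBBP7 and CHD3. It was the highest library for HDAC1, MTA1, MTA2, GATAD2A and GATAD2B, and neither for the remaining subunits.

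The 19 genes of oxidative demethylation and base excision repair all lay within -0.39 to 0.42 on the log2 scale, the narrowest range of the 7 pathway lists, with a median of -0.01. LIG3, the ligase of short-patch repair, had the lowest unadjusted p of the list, with 20.8 ± 4.81 CPM in MOCK and 27.8 ± 4.98 CPM in CYGB (SD, n = 3 each) and a log2 fold change of 0.42. IDH1, which makes the TET cofactor 2-oxoglutarate, had a log2 fold change of -0.18 and D2HGDH, which removes a TET inhibitor, one of -0.20.

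The 13 tested genes of methyl donor supply had a median of 0.02. MAT2A, which makes the methyl donor S-adenosylmethionine outside the liver, was counted 549, 1227 and 1497 times in MOCK and 6886, 1069 and 3600 times in CYGB. CYGB replicate 2 lay within the MOCK range, and the log2 fold change was 1.82 (standard error 0.69, edgeR quasi-likelihood adjusted p = 0.963). The liver form MAT1A had 68 to 119 counts in MOCK and 123 to 141 in CYGB, without overlap, and a log2 fold change of 0.51. MTRR, which reactivates methionine synthase, had 0.29, also without overlap.

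Genes whose silence in somatic cells depends on promoter methylation were mostly at or near 0, but MAGEA3, MAGEB2 and PRAME were not. Of 29 germline genes listed, 21 were in the table and 5 were tested, and the 16 untested genes together were counted 36, 59 and 122 times in MOCK and 33, 16 and 32 times in CYGB. MAGEA6 supplied 104 of the 122 counts of MOCK replicate 3. It is nearly identical to MAGEA3, so the assignment of its reads is uncertain. MAGEA3 was counted 3568, 7153 and 4403 times in MOCK and 4392, 4175 and 8015 times in CYGB. PRAME had 45.4, 47.0 and 50.5 CPM in MOCK and 55.0, 54.1 and 58.9 CPM in CYGB, without overlap. Its log2 fold change was 0.23 (standard error 0.09, edgeR quasi-likelihood adjusted p = 0.963). MAGEB2 was at 226 ± 17.3 CPM in MOCK and 240.4 ± 6.91 CPM in CYGB (SD, n = 3 each), and MAGEC2 had at most 32 counts. Of 12 tested imprinted genes, 4 were higher and 8 lower by sign, with a median of -0.06. DIRAS3, a maternally imprinted growth inhibitor, was counted 148, 178 and 157 times in MOCK and 91, 121 and 137 times in CYGB, without overlap, with a log2 fold change of -0.49 (standard error 0.20, edgeR quasi-likelihood adjusted p = 0.963). NNAT and CDKN1C had log2 fold changes of -0.78 and -0.35, with overlapping groups.

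**Figure D4:**
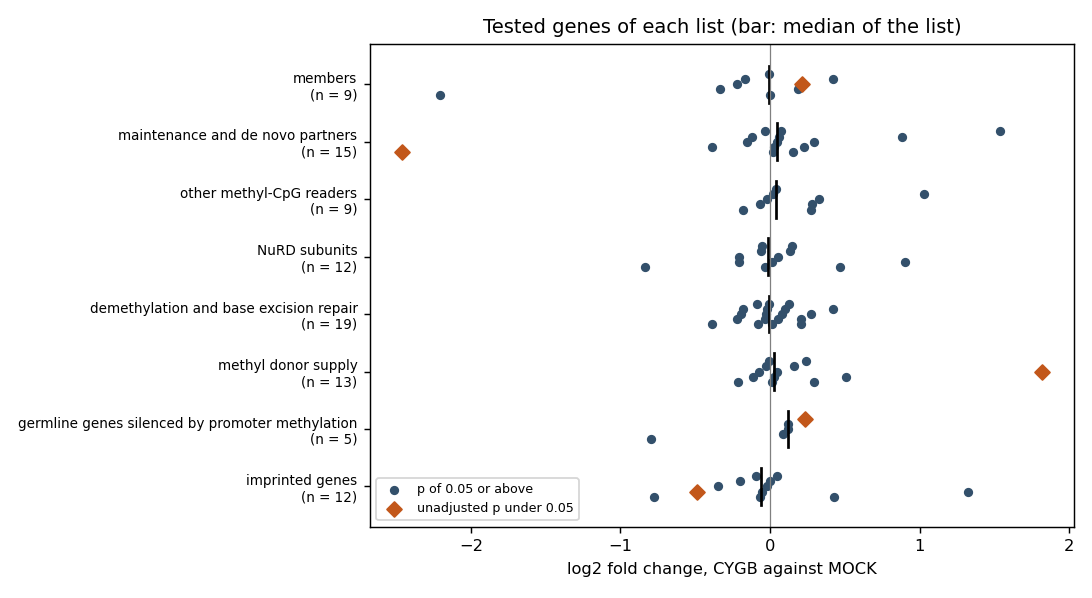
Log2 fold change, CYGB against MOCK, of each tested gene in the member list and the 7 other lists, with the list median as a black bar, and genes at an unadjusted p under 0.05 as orange diamonds. The diamonds are TET3 among the members and HELLS, MAT2A, PRAME and DIRAS3 in the other lists, and each list median lies between -0.06 and 0.12.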

How the data were processed

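Raw transcript counts, not normalized, were deposited by the authors from paired-end reads of 150 bases. The submitters' processing notes name HISAT2, DESeq2 and the build hg19. The counting tool is not given in the sources used here. Positions of 99.5% of 151393 transcripts matched GENCODE 29, so coordinates are those of GRCh38. The 21225 assembled transcripts without a gene entered neither library sizes nor tests. Counts were summed per gene, filtered by filterByExpr (minimum count 10), normalized by TMM and tested by glmQLFit and glmQLFTest in edgeR 4.0.16 (R 4.3.3), fitted over all genes without covariates, and likewise per transcript, with Benjamini-Hochberg adjustment. Shares of the most abundant transcript were compared by two-sided exact permutation tests. Steps were tested on simulated data. Alternatives were DESeq2 1.42.0 and its size factors, edgeR's exact test, other filters, a replicate block, the most abundant transcript, transcripts without a gene included, and each library left out.

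The members, lists and tests were chosen with earlier results of these data known. Named were the 9 members, their most abundant transcripts and those holding at least 20% of the gene's counts in a library, transcripts past the threshold, up to 3 genes per list with the lowest p, and the 3 genes most alike the member with the lowest p. DNMT1-201, DNMT1-203, DNMT1-218, DNMT1-225, TET3-203, SETD2, MAGEA3, MAGEA6, S1PR2 and TDGP1 were named after their values were seen. Figures were drawn with matplotlib 3.10.9.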

Additional observations from a re-analysis of the deposited data

How the results depend on the processing

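The number of members past the threshold, and with an adjusted p under 0.05, was 0 under every alternative run. Of member transcripts, 3 passed with DESeq2 and 0 to 1 with 1 library left out, namely DNMT1-214 without MOCK replicate 2, TET2-201 without MOCK replicate 3, DNMT3B-204 without CYGB replicate 1 and TET3-203 without CYGB replicate 2. Of the pathway genes, HELLS and MAT2A, 2 in all, passed with DESeq2 and with edgeR's exact test, the latter added after seeing the data, and 0 to 2 with 1 library left out, HELLS and SETD2 without MOCK replicate 2 and MAT2A without CYGB replicate 2. The share of all transcripts or genes that passed is not given for the fits with 1 library left out. These counts therefore cannot be read as more or fewer than over the whole table. With 1 library left out the log2 fold change ranged from -0.51 to 0.22 for UHRF1, from -0.075 to 0.113 for DNMT3A, from -0.77 to 0.08 for DNMT3B, from -3.18 to 0.77 for TET1, from -0.86 to 0.37 for TET2, from -0.38 to 0.28 for TDG and from -0.087 to 0.886 for MBD2. Likewise the difference in share ranged from -3.47 to 1.93 percentage points for DNMT1-202 and from -13.4 to 17.9 for TDG-202. It kept its sign but moved by over 1.5 times for UHRF1-205 (-39.0 to -13.5), DNMT3B-203 (0.56 to 15.3), TET3-202 (-2.29 to -0.64) and MBD2-201 (0.093 to 3.48). For the most abundant transcript alone the log2 fold change was 0.054 for DNMT3A, 0.021 for DNMT3B and 1.68 for TET2. It was 0.88 for TET2 over protein coding transcripts only, an alternative chosen after seeing the data, which leaves out TET2-201. TDG, at 0.002, was -0.0036 at a mean of at least 50 counts, where TET1 gave no value. The cause of the other changes was not tested.

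Over all genes, replicate numbers gave no pairing. Deviations from the group mean correlated across genes at 0.016, 0.0049 and 0.025 between libraries sharing a number. These values do not settle pairing for single members. A fit with the number as a block is given for comparison. In it 0 members, 0 member transcripts and 0 pathway genes passed the threshold, and the log2 fold change was -0.0048 for TDG, -0.37 for UHRF1, -0.04 for TET2, -1.51 for TET1 and 0.91 for MBD2. For DNMT3B the block left the log2 fold change at -0.338, against -0.333 in the main fit. The unadjusted edgeR quasi-likelihood p of DNMT3B was 0.059 with the block (adjusted p = 0.917) and 0.455 in the main fit.

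These limits apply throughout. With 3 libraries per group the exact permutation test cannot go below 0.1. In simulated counts, 0% of transcripts changed 8-fold had an edgeR quasi-likelihood adjusted p under 0.05. Counts of isoforms without sequence of their own depend on how the counting divided shared reads, and protein, DNA methylation and hydroxymethylation were not measured. The labels give no batch.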
